A study of Mus musculus with 20 samples.

Results

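The potassium channel genes were taken as the rows of the cerebellar count table whose Ensembl gene ID belongs to a protein-coding mouse gene with a symbol of the form Kcn, letters and a number, with 1 such gene left out. The rule gave 89 of the 29200 rows, in 20 subfamilies named by the letters after Kcn. Of these, 48 genes in 16 subfamilies averaged 50 counts or more per library and were tested, and the other 41 had too few counts for the test. Cerebellar polyA RNA was sequenced from C57BL6/N mice, with 5 WT/WT and 5 304Q/304Q animals at 2 months and 5 of each at 12 months. The WT/WT mice carry unaltered Atxn3 on both chromosomes, and the 304Q/304Q mice are homozygous knock-ins of 1 founder line in which an expanded, interrupted repeat of 304 units was placed into the mouse Atxn3 gene under its own regulatory elements. This is a model of spinocerebellar ataxia type 3. The sample labels name ataxin-2 for the wild-type alleles and a plain CAG repeat, and the description in the study's methods was used here. No mouse received a treatment.

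Potassium channels let K+ leave or enter cells along its gradient, and so set the resting potential, end action potentials and fix how fast a neuron can fire. Voltage-gated channels (Kcna to Kcnd, Kcnh and Kcnq, with the silent subunits Kcng and Kcns and the cytoplasmic partners Kcnab and Kcnip) open on depolarization, calcium- or sodium-activated channels (Kcnma, Kcnn, Kcnt) follow spiking, and inward rectifiers (Kcnj) and tandem-pore leak channels (Kcnk) act near rest. In the cerebellum, fast-gating Kv3 channels of the Kcnc subfamily support the high firing rates of Purkinje cells, and variants of the human counterparts of Kcnd3 and Kcna1 cause inherited ataxias.

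Between 11385380 and 27636687 reads were assigned to genes in each mouse (median 13522932). The 4 groups had median totals of 13438291 (WT/WT, 2 months), 14234560 (304Q/304Q, 2 months), 13267239 (WT/WT, 12 months) and 13226186 counts (304Q/304Q, 12 months). The libraries had the genes of cerebellum: the granule cell gene Cbln3 had a mean of 30953 counts and the Purkinje cell gene Rgs8 21033, whereas the hindbrain gene Hoxb5 had a mean of 0.55. Some libraries stood apart in genes of the choroid plexus, the epithelium that makes cerebrospinal fluid and lies against the cerebellum. Their summed normalized counts were at most 2786 in 14 libraries but 35420.3 in replicate 3 of the 304Q/304Q mice of 2 months, 9420.0, 41703 and 20073 in replicates 1, 2 and 5 of the WT/WT mice of 12 months, and 30088 and 27863 in replicates 1 and 3 of the 304Q/304Q mice of 12 months. Counts of channel genes that passed are therefore also given without these 6 libraries, a setting added after the data were seen. The other gene lists below are given over all libraries only. In bulk tissue, fewer cells of a type and less RNA per cell cannot be told apart.

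Levels between genes were compared as FPKM, counts per kilobase of merged exons and per 1000000 counts, averaged over the 20 mice. Among the genes with high levels were the silent Kv subunit gene Kcng4 with 82.1 FPKM, the leak channel gene Kcnk1 with 69.9, the glial inward rectifier gene Kcnj10 with 69.4, the Kv3 gene Kcnc1 with 66.0, the Kv4 gene Kcnd2 with 56.8 and its partner Kcnip4 with 51.0. The order depended on the group. In the WT/WT mice of 12 months Kcng4 had 96.6 ± 6.36, Kcnk1 73.9 ± 6.93 and Kcnj10 69.8 ± 2.70 FPKM (SD, n = 5), whereas in the 304Q/304Q mice of 12 months Kcnk1 had 67.7 ± 4.13, Kcng4 64.7 ± 5.15 and Kcnj10 59.9 ± 1.75 FPKM. Kcnk1 and Kcnj10 in the WT/WT mice, and Kcnk1 and Kcng4 in the 304Q/304Q mice, were apart by less than the SD of Kcnk1. Among the highest of their subfamilies were also Kcna2 (38.5 FPKM), Kcnt1 (36.6), Kcnab2 (34.8), Kcnma1 (19.9), Kcnh2 (14.2), Kcnn2 (4.24), Kcnmb4 (3.87) and Kcns2 (1.18). The median of the tested genes was 13.4 FPKM, 27 lay over 10 FPKM, and 5 lay under 1 FPKM: Kcnk9 (0.766), Kcnh3 (0.693), Kcnh7 (0.673), Kcnc2 (0.613) and Kcnb2 (0.502). With the longest transcript in place of the merged exons, 8 of the 48 levels rose by over 1.5 times, among them those of Kcnip4 (to 77.3 FPKM), Kcnn2 (8.60), Kcnmb4 (7.91) and Kcnh3 (1.08), so that these levels depend on the length used.

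**Figure D1:**
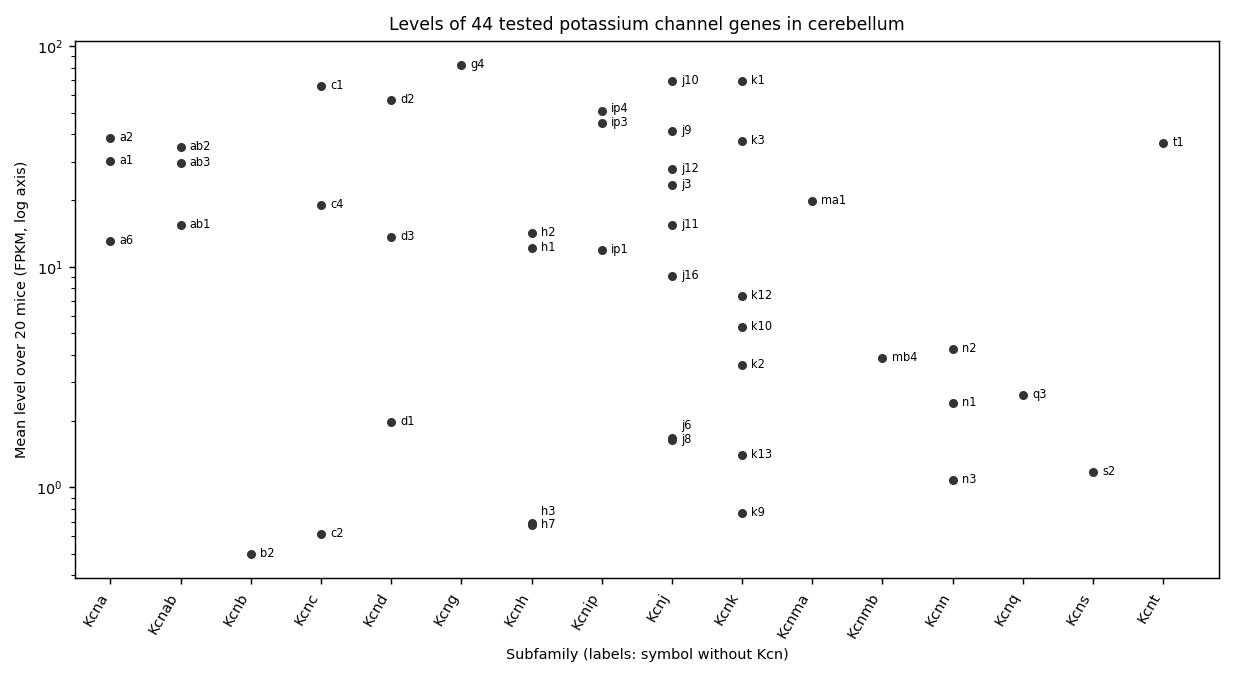
Mean level over the 20 mice (FPKM, log axis) of 44 tested potassium channel genes, each a point labelled by its symbol without Kcn, in columns by subfamily. Averaged over the 4 groups, the points run from 0.502 FPKM (Kcnb2) to 82.1 FPKM (Kcng4).

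The 41 genes under 50 counts had means between 0.1 and 33.1 counts, 22 of them under 10, and 10 were at 0 in at least 10 of the 20 libraries. They were Kcna3, Kcna4, Kcna5, Kcna7 and Kcna10 of the Shaker-type subfamily; Kcng1, Kcng2, Kcng3, Kcnf1, Kcns1, Kcns3, Kcnv1 and Kcnv2 of the silent subunits; Kcnh4, Kcnh5, Kcnh6, Kcnh8, Kcnq1 and Kcnq5; the auxiliary subunits Kcne1, Kcne3, Kcne4, Kcnip2, Kcnmb1, Kcnmb2 and Kcnmb3; Kcnn4, Kcnt2 and Kcnu1; the inward rectifiers Kcnj2, Kcnj4, Kcnj5, Kcnj13, Kcnj14 and Kcnj15; and the leak channels Kcnk4, Kcnk5, Kcnk6, Kcnk7, Kcnk15 and Kcnk18. Kcne, Kcnf, Kcnu and Kcnv had no tested gene. When lower counts were admitted, 21 of the 41 genes entered with the filterByExpr rule of edgeR and all 41 with no filter, and none passed in any of the 5 comparisons; between the genotypes at 12 months 1 had an unadjusted p under 0.05 with each filter. The nearest to the limit were Kcnh3 (56.6 counts), Kcnj8 (59.7) and Kcnk13 (60.9) above it, and Kcnk4 (33.1), Kcnj2 (33.0) and Kcna4 (31.3) under it.

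At 12 months, 3 of the 48 tested channel genes were higher and 13 lower in the 304Q/304Q mice at an adjusted p of at most 0.05 (quasi-likelihood test of edgeR, p adjusted by Benjamini-Hochberg over 12153 genes). Among all genes tested, 5.23% were higher and 7.3% lower, against 6.25% and 27.1% of the channel genes. The channel genes that rose were Kcnb2, Kcnk2 and Kcnj3. Among those that fell were Kcnh3, Kcng4, Kcnip1, Kcnn2, Kcnc4, Kcnj11, Kcnma1, Kcna6, Kcnj9 and Kcnj10, in order of the size of the change. Differentially expressed genes (DEGs) also had to change by 0.5 or more on the log2 scale, which all 3 that rose did, against 1.26% of all genes, and 3 that fell (Kcnh3, Kcng4 and Kcnip1), against 1.83%. In 14 of the 48 genes the 5 mice of a genotype lay entirely above or below the other 5, against 8.94% of all genes; all 14 had passed, and of the genes that passed, Kcna6 and Kcnj3 overlapped. The median log2 fold change was −0.14 over the 48 genes and −0.0039 over all genes. Of the 48 values, 35 were below 0 and 13 above, while 49.1% of all genes were above 0. The tested channel genes were more abundant than the average gene, with a median of 1024 mean counts against 481.

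Without the 6 libraries high in choroid plexus genes, which leaves 2 WT/WT and 3 304Q/304Q mice of 12 months, 8 channel genes passed, the same 3 higher and 5 lower, while the genes that passed among all 12153 went from 1523 to 651. Kcna6, Kcnb2, Kcnc4, Kcng4, Kcnip1, Kcnj3 and Kcnk2 kept their calls. Kcnh3, Kcnj9, Kcnj10, Kcnj11, Kcnma1 and Kcnn2 lost them and kept their sign. Their log2 fold changes were then −0.97 (Kcnh3), −0.30 (Kcnj9), −0.19 (Kcnj10), −0.32 (Kcnj11), −0.27 (Kcnma1) and −0.42 (Kcnn2), each within 1.5 times of the value over all mice given below.

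**Figure D2:**
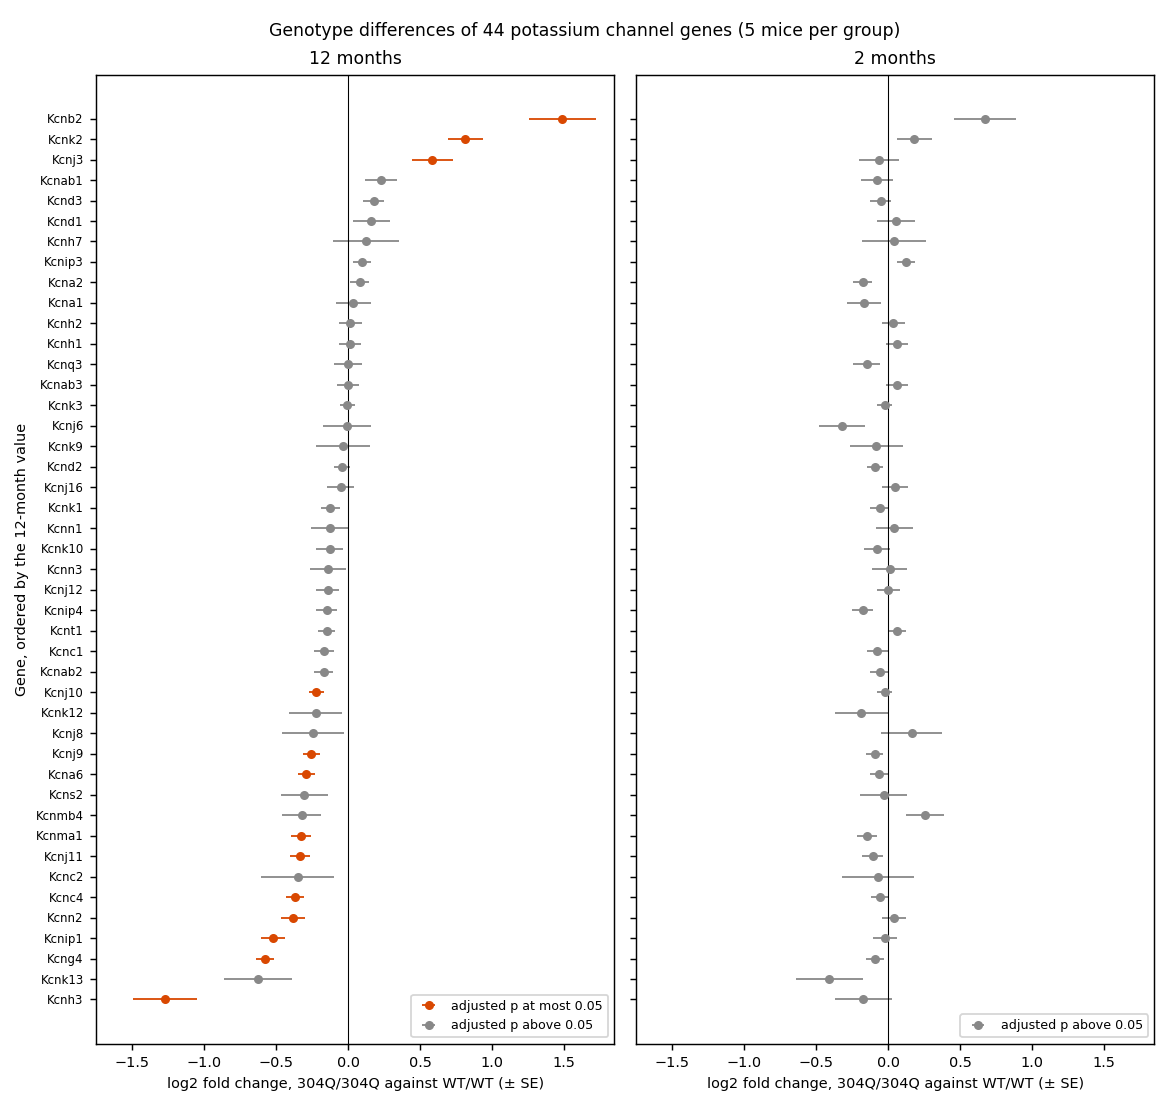
Log2 fold change of 304Q/304Q against WT/WT mice with its standard error for 44 tested channel genes at 12 months (left) and 2 months (right), 5 mice per group, ordered by the 12-month value; orange points have an adjusted p of at most 0.05. At 12 months 3 genes stand to the right and 10 to the left in orange, and at 2 months none is orange.

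The Kv2 genes of the Kcnb subfamily encode slow delayed rectifiers. Kcnb2 (ENSMUSG00000092083, chromosome 1 of GRCm38 from 15287254 to 15723750, plus strand) had the largest rise. In the WT/WT mice of 12 months its normalized counts were 52.3, 36.7, 33.1, 59.2 and 66.6, and in the 304Q/304Q mice 169, 131, 114, 142 and 139. Every 304Q/304Q mouse thus lay above every WT/WT mouse, and the log2 fold change was 1.49 ± 0.23 (SE; edgeR, Benjamini-Hochberg adjusted p = 9.46e-05). At 2 months the WT/WT mice had 114, 60.7, 151, 75.4 and 68.1 and the 304Q/304Q mice 103, 161, 159, 171 and 155 normalized counts. The 2-month groups overlapped because 304Q/304Q replicate 1, which stood well below the other 4, was under WT/WT replicates 1 and 3, and the log2 fold change of 0.67 ± 0.22 did not pass (adjusted p = 0.668, edgeR).

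Among the Kv3 genes (Kcnc), Kcnc4, the A-type member of the subfamily, had 1232, 1245, 1229, 1187 and 1199 normalized counts in the WT/WT and 999, 930.0, 909, 947 and 931 in the 304Q/304Q mice of 12 months. The groups stood apart, with a log2 fold change of −0.37 ± 0.064 (adjusted p = 0.000318, edgeR); at 2 months they ran from 838 to 1075 and from 837 to 961. Kcnc1, which shares the fast-spiking role, and the low Kcnc2 did not pass, at log2 fold changes of −0.17 ± 0.07 and −0.35 ± 0.25.

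Of the Kv1 subfamily (Kcna), which clusters beside the node of Ranvier and in basket cell terminals, 1 of 3 tested genes passed. Kcna6 counted 1009.7, 1228, 1282, 1159 and 1302 in the WT/WT and 973, 1014, 1007, 909 and 984 in the 304Q/304Q mice of 12 months. The groups overlapped only through WT/WT replicate 1, and the log2 fold change was −0.29 ± 0.061 (adjusted p = 0.00222, edgeR). Kcna1, which lies 61.9 kb from Kcna6 on chromosome 6 and is the gene of episodic ataxia type 1 in people, had a value of 0.036 ± 0.12, and Kcna2 of 0.079 ± 0.067. The cytoplasmic Kv1 partners Kcnab1, Kcnab2 and Kcnab3 did not pass either (0.23 ± 0.11, −0.17 ± 0.063 and −0.0012 ± 0.075).

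Kcng4 encodes a silent subunit, which makes no channel of its own but joins Kv2 subunits and alters their gating. It lies on chromosome 8 of GRCm38 from 119623854 to 119635680, minus strand (ENSMUSG00000045246) and was among the most abundant tested channel genes per length. In the WT/WT mice of 12 months it counted 4848, 5042, 5764, 5172 and 5296, and in the 304Q/304Q mice 3599.8, 3741, 3659, 3448 and 3037. No 304Q/304Q mouse reached the lowest WT/WT mouse, with a log2 fold change of −0.58 ± 0.063 (adjusted p = 6.83e-07, edgeR). At 2 months the counts were 4308, 4718, 4489, 4851 and 4917 in WT/WT and 4248, 4464, 3921, 4821 and 4402 in 304Q/304Q mice. These overlapped, with a log2 fold change of −0.091 ± 0.062. Kcns2, the other silent subunit gene tested, had a 12-month value of −0.31 ± 0.16 and did not pass. The 250 bases before the start of Kcng4 are shown because Kcng4 had the smallest adjusted p of the channel genes at 12 months; they come from RefSeq on GRCm38.p6 (chr8:119635681-119635930, minus strand), 5′ to 3′, with 1 CCAAT box in capitals.
Kcng4: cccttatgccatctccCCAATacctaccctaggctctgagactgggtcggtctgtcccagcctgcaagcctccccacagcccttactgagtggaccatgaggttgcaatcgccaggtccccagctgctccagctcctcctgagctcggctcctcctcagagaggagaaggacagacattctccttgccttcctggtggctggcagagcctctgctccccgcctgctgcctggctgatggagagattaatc
The window had a GC content of 60.4% and 4 CpG sites, against medians of 52.4% and 6 over the 32851 promoter windows of the same length in the RefSeq table. Searched on both strands, a CCAAT box (CCAAT) was in 33.85%, a GC box (GGGCGG) in 32.74% and a TATA box (TATAAA) in 12.37% of these windows, and the Kcng4 window held neither of the last 2 runs of letters.

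The Kv4 genes Kcnd1, Kcnd2 and Kcnd3, A-type channels of granule cell and Purkinje cell dendrites, had 12-month values of 0.16 ± 0.13, −0.045 ± 0.057 and 0.18 ± 0.073 and did not pass. Among their calcium-binding partners, the KChIP genes, Kcnip1 fell. Kcnip1 (ENSMUSG00000053519, chromosome 11 of GRCm38 from 33629339 to 33993152, minus strand) counted 1121, 1089.7, 1397, 1151 and 1163 in the WT/WT and 914, 785, 759, 802 and 854 in the 304Q/304Q mice of 12 months. WT/WT replicate 3 was high among the WT/WT mice, but all WT/WT mice lay above all 304Q/304Q mice, with a log2 fold change of −0.52 ± 0.083 (adjusted p = 0.000114, edgeR). It passed in every alternative, but its size was under the threshold for a DEG with surrogate variables in edgeR (−0.49) or DESeq2 (−0.48) and without replicate 3 of the WT/WT (−0.46) or of the 304Q/304Q mice (−0.497). At 2 months the WT/WT mice counted 1096, 911, 1093, 1317 and 1100.3 and the 304Q/304Q mice 1166, 1119.7, 978, 1099 and 1057, with no separation. The more abundant Kcnip3 and Kcnip4 had values of 0.094 ± 0.062 and −0.15 ± 0.071.

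Kcnh3, a gene of the ether-à-go-go family, was low, and its counts are close to the limit for testing. It lies on chromosome 15 of GRCm38 from 99224861 to 99242817, plus strand (ENSMUSG00000037579), and its exons overlap those of Mcrs1 on the other strand, while whether the counting used the strand is not stated. The WT/WT mice of 12 months had 84.6, 63.4, 69.5, 37.1 and 59.9 normalized counts and the 304Q/304Q mice 27.8, 34.3, 19.996, 27.2 and 20.1. The lowest WT/WT mouse, replicate 4, came near the highest 304Q/304Q mouse without overlap. Its log2 fold change of −1.27 ± 0.22 was the largest fall (adjusted p = 0.000351, edgeR). At 2 months the WT/WT mice had 69.7, 69.1, 65.4, 88.2 and 71.9 and the 304Q/304Q mice 47.2, 51.5, 81.2, 75.1 and 70.5 normalized counts, with wide overlap. Kcnh1, Kcnh2 and Kcnh7 did not pass, at 0.012 ± 0.078, 0.013 ± 0.079 and 0.12 ± 0.23. Of the M-current genes (Kcnq), whose channels restrain repeated firing, Kcnq3 did not pass, at −0.0011 ± 0.095.

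Of the channels that open on calcium, the large-conductance Kcnma1 (BK) and the small-conductance Kcnn2 (SK2), both used by Purkinje cells to shape their firing, fell. Kcnma1 counted 5225, 4831, 4694, 4845 and 4633 in the WT/WT and 3806, 3903, 3553, 4273 and 3736 in the 304Q/304Q mice of 12 months. The groups did not overlap, with a log2 fold change of −0.33 ± 0.07 (adjusted p = 0.00259, edgeR), and at 2 months they ran from 4829 to 6393 and from 4565 to 5585. Kcnn2 counted 491, 476, 533, 527 and 555 in the WT/WT and 404, 329.9, 382, 442 and 416 in the 304Q/304Q mice of 12 months. Every 304Q/304Q value was below the WT/WT values, with a log2 fold change of −0.39 ± 0.085 (adjusted p = 0.00335, edgeR). With surrogate variables as covariates in edgeR, Kcnn2 no longer passed, while over all alternatives its log2 fold change lay between −0.43 and −0.28. At 2 months Kcnn2 ran from 371 to 489 in WT/WT and from 410.0 to 491 in 304Q/304Q mice. Kcnn1 (−0.13 ± 0.13), Kcnn3 (−0.14 ± 0.13), the BK subunit gene Kcnmb4 (−0.32 ± 0.13) and the sodium-activated Kcnt1 (−0.15 ± 0.06) did not pass.

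The inward rectifiers held changes in both directions, with 1 of 8 tested genes higher and 3 lower. Kcnj3 (GIRK1) and Kcnj9 (GIRK3) encode subunits of the G-protein-gated channels through which inhibitory receptors silence neurons. Kcnj3 (ENSMUSG00000026824, chromosome 2 of GRCm38 from 55435970 to 55598145, plus strand) counted 1827, 1305, 1207, 1307 and 1308 in the WT/WT and 1623, 2317, 2291, 2501 and 1703 in the 304Q/304Q mice of 12 months. WT/WT replicate 1 was higher than 304Q/304Q replicates 1 and 5, so that the groups overlapped, while the other 4 WT/WT mice lay below all 304Q/304Q mice. The log2 fold change was 0.59 ± 0.14 (adjusted p = 0.00674, edgeR). With surrogate variables in edgeR it was 0.26, which passed but is under the threshold for a DEG. At 2 months the WT/WT mice counted 2027, 2009, 1925, 1502 and 1456 and the 304Q/304Q mice 1549.9, 1451, 1386, 2015 and 2113, which spread over the same range. Kcnj9 counted 2592, 2623, 2921, 2692 and 2766 in the WT/WT and 2316, 2112, 2203, 2322 and 2418 in the 304Q/304Q mice of 12 months. These did not overlap, with a log2 fold change of −0.26 ± 0.059 (adjusted p = 0.00443, edgeR). Kcnj6 (GIRK2) had a value of −0.011 ± 0.17.

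Kcnj10 (Kir4.1) encodes the main inward rectifier of astrocytes, Bergmann glia and oligodendrocytes, by which glia take up K+ released by firing neurons. It counted 5431, 5333, 5039, 5375 and 5611 in the WT/WT and 4580.2, 4796, 4659, 4466 and 4491 in the 304Q/304Q mice of 12 months. All 304Q/304Q values were below all WT/WT values, with a log2 fold change of −0.22 ± 0.05 (adjusted p = 0.00411, edgeR), and at 2 months the groups ran from 5467 to 5891 and from 4998 to 6264. Its glial partner Kcnj16 (Kir5.1) had a value of −0.054 ± 0.092 and did not pass. Kcnj11, the pore of the ATP-sensitive channel that couples metabolism to excitability, counted 876, 836, 926, 836 and 902 in the WT/WT and 677, 751, 671, 775 and 595 in the 304Q/304Q mice of 12 months. Its groups stood apart, with a log2 fold change of −0.34 ± 0.071 (adjusted p = 0.00244, edgeR). Kcnj8, the other pore gene of this channel type, and Kcnj12 had values of −0.24 ± 0.22 and −0.14 ± 0.081.

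Kcnj9 and Kcnj10 are neighbours on chromosome 1 of GRCm38, Kcnj9 from 172320501 to 172329318 on the minus strand and Kcnj10 from 172341210 to 172374085 on the plus strand, so that they are read away from each other from starts 11.9 kb apart. Most of the 14 pairs of channel genes under 500 kb apart hold a gene that was not tested. Both genes were tested in this pair, in Kcna1 with Kcna6, and in Kcnj11 with Kcnc1. Both passed in this pair alone, and both fell. The 250 bases before each start are shown for this pair and for Kcnj3, which moved the other way, from RefSeq on GRCm38.p6 and 5′ to 3′. Capitals mark the CCAAT, GC and TATA boxes, found on either strand. Kcnj9 is chr1:172329323-172329572 (minus strand), Kcnj10 chr1:172340960-172341209 (plus strand) and Kcnj3 chr2:55435720-55435969 (plus strand).
Kcnj9: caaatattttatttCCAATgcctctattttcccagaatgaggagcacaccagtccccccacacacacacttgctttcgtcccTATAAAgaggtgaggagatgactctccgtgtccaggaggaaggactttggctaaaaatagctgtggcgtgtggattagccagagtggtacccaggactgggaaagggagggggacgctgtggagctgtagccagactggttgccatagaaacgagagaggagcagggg
Kcnj10: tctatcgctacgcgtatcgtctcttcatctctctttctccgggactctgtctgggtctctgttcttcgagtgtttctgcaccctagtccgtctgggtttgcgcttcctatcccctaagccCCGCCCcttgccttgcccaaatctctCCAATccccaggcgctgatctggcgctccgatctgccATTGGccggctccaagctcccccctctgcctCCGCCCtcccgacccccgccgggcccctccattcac
Kcnj3: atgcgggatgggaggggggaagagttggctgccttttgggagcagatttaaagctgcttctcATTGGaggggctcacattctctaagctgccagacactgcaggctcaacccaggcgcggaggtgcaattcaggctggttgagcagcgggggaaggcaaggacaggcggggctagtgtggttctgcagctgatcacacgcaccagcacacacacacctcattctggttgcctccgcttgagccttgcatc
The neighbours differed in what the windows hold. The Kcnj10 window had 17 CpG sites, a GC content of 62.0%, 2 GC boxes and 2 CCAAT boxes, whereas the Kcnj9 window had 5 CpG sites, 52.0% GC, 1 CCAAT box and 1 TATA box. The boxes were counted as runs of letters anywhere in the window, whatever their distance from the start. The Kcnj3 window had 7 CpG sites, 58.4% GC and 1 CCAAT box.

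Among the leak channels, which carry a steady outward current, 1 of 7 tested genes passed. Kcnk2 (TREK-1; ENSMUSG00000037624, chromosome 1 of GRCm38 from 189207930 to 189402273, minus strand), a channel opened by stretch, heat and lipids, counted 193, 199, 264, 201 and 169 in the WT/WT and 335, 373, 346, 359 and 389 in the 304Q/304Q mice of 12 months. All 304Q/304Q mice lay above the highest WT/WT mouse, replicate 3. The log2 fold change was 0.81 ± 0.12 (adjusted p = 4.37e-05, edgeR). At 2 months the counts were 191, 193, 241, 247 and 168 in WT/WT and 269, 252, 204, 205 and 242 in 304Q/304Q mice, which overlapped. The remaining leak channel genes had 12-month values of −0.12 ± 0.064 (Kcnk1), −0.0053 ± 0.051 (Kcnk3), −0.035 ± 0.19 (Kcnk9), −0.13 ± 0.092 (Kcnk10), −0.23 ± 0.18 (Kcnk12) and −0.63 ± 0.24 (Kcnk13). Kcnk13 had the largest size among the channel genes that did not pass, with few counts (adjusted p = 0.0866, edgeR). Of the 16 channel genes that passed at 12 months, 9 have exons that overlap another gene, in each case on the other strand.

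**Figure D3:**
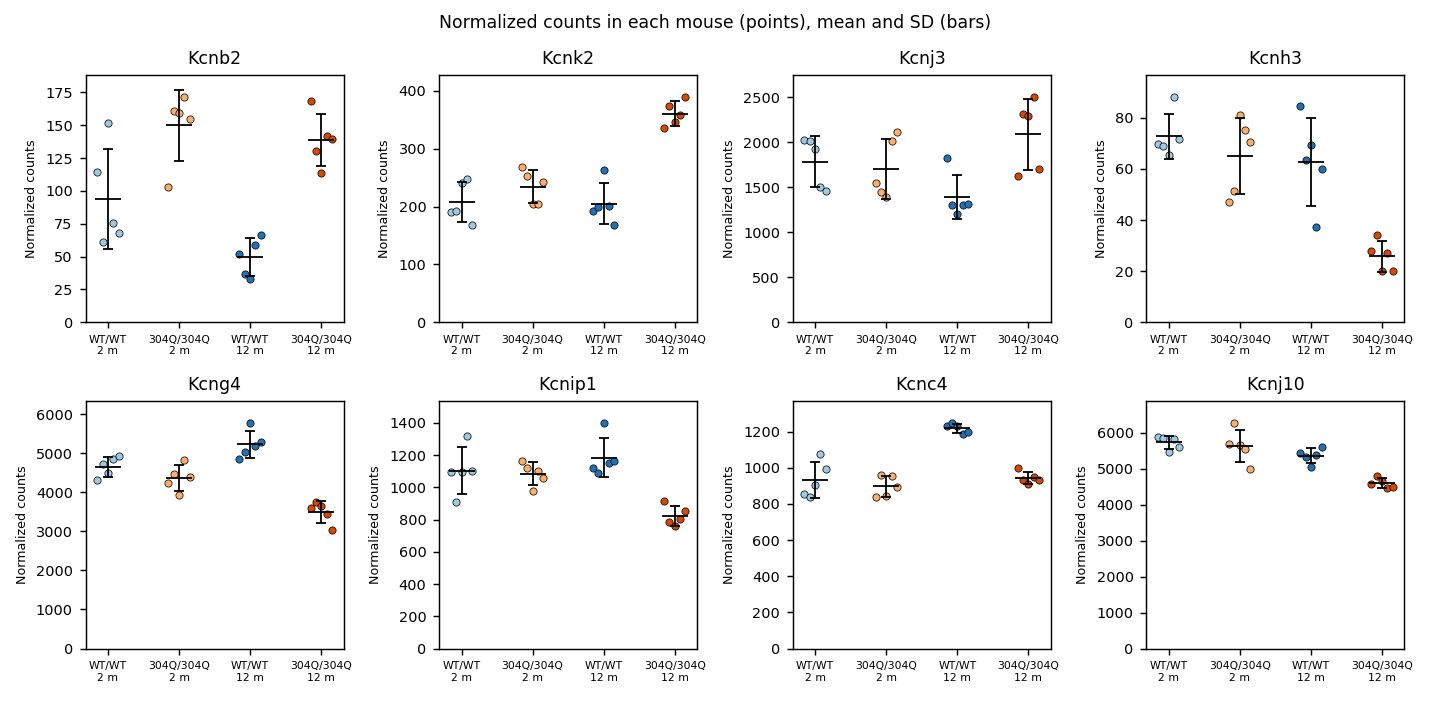
Normalized counts in each of the 20 mice (points) with the mean and SD of each group of 5 (bars) for the 6 DEGs at 12 months and for Kcnc4 and Kcnj10; each axis starts at 0. The 12-month 304Q/304Q mice lie above the WT/WT mice in Kcnb2 and Kcnk2, overlap them in Kcnj3, and lie below them in Kcnh3, Kcng4, Kcnip1, Kcnc4 and Kcnj10.

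At 2 months, none of the 48 channel genes passed in edgeR after Benjamini-Hochberg adjustment, against 0.0494% of all genes, and none passed in DESeq2. An unadjusted p under 0.05 was met by 6 channel genes in edgeR, or 12.5%, against 5.55% of all genes, and by 7 in DESeq2. This count was 10 with surrogate variables in either tool, 10 without WT/WT replicate 4 and 4 without WT/WT replicate 1 of 2 months. The 5.55% of all genes holds for the edgeR fit over all mice only. After adjustment, the genes that passed among all genes went from 6 to 36 with surrogate variables in edgeR and from 22 to 51 in DESeq2. They were 5 without WT/WT replicate 4 and 4 without WT/WT replicate 1 of 2 months. The groups did not overlap in 2 of the 48, against 1.05% of all genes. One of these, Kcna2, counted 8025, 7339, 7632, 7475 and 7949 in the WT/WT and 6453, 7265, 6390.4, 6629 and 7221 in the 304Q/304Q mice of 2 months, a log2 fold change of −0.18 ± 0.067 (adjusted p = 0.788, edgeR). The 304Q/304Q mice were all lower, while at 12 months the Kcna2 groups overlapped. Of the 16 genes that passed at 12 months, 14 had the same sign at 2 months. This count was not made over all genes that passed, so that it cannot be called particular to the channel genes. The median over the 48 genes at 2 months was −0.060, against −0.0016 over all genes. This median was −0.028 without WT/WT replicate 1 of 2 months and −0.030 and −0.032 with surrogate variables in DESeq2 and edgeR.

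The difference of the genotype effect between ages was tested as an interaction. It passed for 3 channel genes, all with a lower effect at 12 months, against 1.31% of all genes, and for none in the other direction, against 0.642%. Kcng4 had an interaction of −0.49 ± 0.088 on the log2 scale (adjusted p = 0.0032, edgeR) and Kcnip1 of −0.50 ± 0.12 (adjusted p = 0.0227). For the other 13 genes that passed at 12 months, a difference from the 2-month effect was not shown in this test; Kcnk2 (adjusted p = 0.0531, edgeR), Kcnh3 (0.056) and Kcnn2 (0.0619) were the nearest. The count depended on the tool and on single mice. It was 7 with DESeq2 (1 of them higher), 9 with DESeq2 and surrogate variables (2 higher), 8 with edgeR and surrogate variables (1 higher), 8 without WT/WT replicate 1 of 12 months (3 higher), 5 without WT/WT replicate 4 of 2 months (none higher), 5 without WT/WT or 304Q/304Q replicate 5 of 2 months (1 higher in each), 2 without 304Q/304Q replicate 2 of 2 months, and 2 without the 6 libraries high in choroid plexus genes. The count over all genes moved in the same settings, from 237 to 395 with DESeq2, 505 with DESeq2 and surrogate variables, 388 with edgeR and surrogate variables, 558 without WT/WT replicate 1 of 12 months and 94 without the choroid-high libraries. Kcng4 passed in each of the alternatives. Kcnip1 was lost when 304Q/304Q replicate 1 or 2 of 2 months or WT/WT replicate 3 of 12 months was left out.

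Between 2 and 12 months in WT/WT mice, 3 channel genes rose and 7 fell (edgeR, Benjamini-Hochberg adjusted), that is 6.25% and 14.6% of the channel genes against 6.08% and 5.42% of all genes. Among those that rose, Kcnc4 did so by 0.39 ± 0.064 on the log2 scale and the ether-à-go-go-related gene Kcnh2 by 0.34 ± 0.08. The Kv1 genes Kcna1 (−0.53 ± 0.12) and Kcna2 (−0.45 ± 0.067), the Kv4 genes Kcnd2 (−0.23 ± 0.057) and Kcnd3 (−0.25 ± 0.073), and Kcnb2 (−0.92 ± 0.24), Kcnj6 (−0.65 ± 0.16) and Kcnq3 (−0.36 ± 0.094) fell. Kcna1 had 3071, 2581, 2529, 2118 and 2191 normalized counts in the WT/WT mice of 2 months and 2255, 1939, 1331, 1607 and 1494 in those of 12 months. Replicate 1 was the highest at each age, and the ages overlapped. Kcna2 counted 6431, 6073, 4733, 5898 and 5049 in the WT/WT mice of 12 months, all below the 2-month mice given above. The count of 10 genes was 6 when the 2 groups compared were fitted alone and 6 without the choroid-high libraries, which lost Kcnb2, Kcnd3, Kcnj6 and Kcnq3 in each case and left 3 that fell. Over all genes 1398 passed, against 739 with those 2 groups alone and 1105 without the choroid-high libraries. Without WT/WT replicate 1 of 12 months, 14 channel genes passed, 5 higher and 9 lower, and the count over all genes rose as well, to 2542. Kcnd3 and Kcnq3 were also lost with surrogate variables in edgeR, and Kcnb2 and Kcnq3 with trends of GC content and length removed. In the latter setting Kcnc4 still passed, at 0.23, and without WT/WT replicate 1 of 2 months Kcnj6 passed at −0.43.

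In 304Q/304Q mice, 3 channel genes rose with age, against 3.08% of all genes, and 9 fell, 18.8% of the channel genes against 4.18%. Without the choroid-high libraries 3 rose and 6 fell, while the genes that passed among all genes went from 882 to 431. With surrogate variables 4 rose and 13 fell in DESeq2, where 1644 of all genes passed. In edgeR with surrogate variables 4 rose and 12 fell, where 1458 of all genes passed. In the fit without these changes, Kcnh2 (0.31 ± 0.08) and Kcnk2 (0.62 ± 0.12) rose. Among the genes that fell were Kcnh3 (−1.31 ± 0.22), Kcnip1 (−0.40 ± 0.083), Kcnma1 (−0.37 ± 0.07), Kcng4 (−0.32 ± 0.062), Kcnj10 (−0.29 ± 0.05), Kcnt1 (−0.22 ± 0.06) and Kcnd2 (−0.19 ± 0.057). Of the 9 genes that fell with age, 7 had also fallen between the genotypes at 12 months. Both comparisons use the 304Q/304Q mice of 12 months, so that this overlap is not independent evidence of either change. Kcnd2 and Kcnh2 passed with age in both genotypes, with the same sign. With trends of GC content and length removed, the calls in WT/WT mice were lost, at −0.14 for Kcnd2 (adjusted p = 0.0502, edgeR) and 0.17 for Kcnh2 (adjusted p = 0.107, edgeR), and those in 304Q/304Q mice were kept. Kcnb2, which rose in 304Q/304Q against WT/WT mice at 12 months, had an age change of −0.10 ± 0.21 in 304Q/304Q mice, beside its fall in WT/WT mice; the 2 changes were not shown to differ (interaction adjusted p = 0.209, edgeR). Kcnk2 had −0.018 ± 0.12 in WT/WT mice beside its rise in 304Q/304Q mice. The calls of Kcnd2 and Kcnt1 were each lost when any of 6 and 4 single libraries, in this order, was left out, and without the choroid-high libraries; that of Kcnd2 was also lost with the replicate number as a block and with no filter on low counts.

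**Figure D4:**
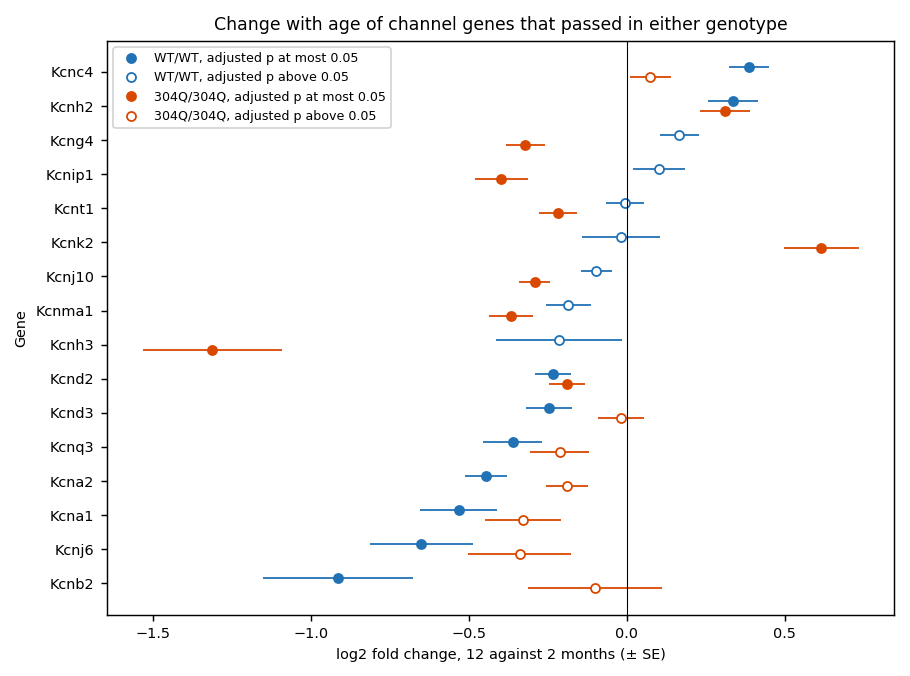
Log2 fold change of 12 against 2 months with its standard error in WT/WT (blue) and 304Q/304Q mice (orange) for channel genes that passed in either genotype, 5 mice per group; filled points have an adjusted p of at most 0.05. Kcnh2 and Kcnd2 are filled in both genotypes, and Kcnk2, Kcnh3, Kcng4 and Kcnip1 in 304Q/304Q mice alone.

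Summed over the 89 genes, potassium channels took 0.737%, 0.722%, 0.717%, 0.760% and 0.738% of all counts in the WT/WT mice of 2 months and 0.695%, 0.731%, 0.692%, 0.712% and 0.707% in the 304Q/304Q mice. At 12 months the shares were 0.705%, 0.728%, 0.707%, 0.728% and 0.705% in the WT/WT mice and 0.642%, 0.646%, 0.617%, 0.653% and 0.652% in the 304Q/304Q mice. The shares of the 12-month groups did not overlap, while those of 2 months did. As summed normalized counts, the genotypes did not overlap at either age. At 2 months these sums ran from 104186.4 to 109623.4 in WT/WT and from 97984.0 to 103848.7 in 304Q/304Q mice. At 12 months they ran from 99874.5 to 103363.3 and from 87718.1 to 94066.2.

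Outside the Kcn symbols, 16 of 18 listed channel partners were tested. At 12 months 2 were higher and 1 lower, with a median log2 fold change of 0.012, where 5.23% of all genes were higher and 7.3% lower. Cntnap2, the Caspr2 protein that holds Kv1 channels beside the node, rose by 0.39 ± 0.069 (adjusted p = 0.000361, edgeR) and had an interaction of 0.38 ± 0.097 (adjusted p = 0.0397). Dpp10, a Kv4 partner, rose by 0.20 ± 0.054 (adjusted p = 0.0163). Abcc8, the sulfonylurea receptor that assembles with the Kcnj11 pore, had a log2 fold change of −0.26 ± 0.084 (adjusted p = 0.0472, edgeR), so that both genes of this channel were among those that fell. Of 11 potassium pumps and cotransporters, all tested, 1 fell, and the median of the list was −0.031. At 2 months none of these 27 tested genes passed. With age in WT/WT mice 5 partners fell (Dpp10, Lrrc55, Adam22, Adam23 and Dlg2) and 2 transport genes fell (Atp1b1 and Slc12a2), where 5.42% of all genes fell. In 304Q/304Q mice Cntnap2 rose and 2 transport genes fell, Atp1b2 among them, where 3.08% of all genes rose and 4.18% fell.

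Marker genes of cell types that hold these channels moved with the genotype at 12 months too, where 5.23% of all genes were higher and 7.3% lower. Of 8 Purkinje cell genes, 6 fell, with a median log2 fold change of −0.32; their summed normalized counts, led by Itpr1, ran from 104031 to 115174 in WT/WT and from 81907 to 89954 in 304Q/304Q mice. Of 8 inhibitory interneuron genes, 4 fell (median −0.24), and their sums, led by Pvalb, ran from 29548 to 32757 and from 24259.9 to 25639. Whether this list moved apart from the Purkinje cell list was not tested. For myelinating oligodendrocytes 4 of 8 fell (median −0.39), with sums led by Mbp of 74163 to 84701 and 48707 to 67377. Astrocyte and Bergmann glia genes had 2 of 8 lower (median −0.094), with sums led by Slc1a3 of 52276 to 54579.9 and 49181 to 50828. None of these 4 lists overlapped between the genotypes of 12 months, and no marker in them was at 0. Already at 2 months the oligodendrocyte sums did not overlap, from 80496 to 92549.8 in WT/WT and 69735 to 78940.0 in 304Q/304Q mice, and 1 gene, Mal, had passed (−0.39 ± 0.061, adjusted p = 0.00668, edgeR), while the sums of the other 3 lists overlapped. The granule cell genes, of which none passed, overlapped, with sums led by Cbln3 of 80861 to 88848 and 79265 to 91761 and a median of −0.047. The unipolar brush cell genes had 1 of 5 tested higher (Calb2) and 3 lower, Eomes by −2.06 ± 0.40; Calb2 had also passed at 2 months (0.37 ± 0.063), where the sums ran from 17432 to 19206 in WT/WT and from 19423 to 20231 in 304Q/304Q mice without overlap. At 12 months the sums of this list were also higher in all 304Q/304Q mice, from 18899 to 19989.9 against 17264 to 18767. The median log2 fold change of its 5 tested genes was −0.15, so that the sum ran against most of them. Of the remaining lists, C1qa was higher among 7 microglia genes tested, 1 gene among 4 of cerebellar nuclei and brainstem neurons and Arc among 7 immediate early genes, Ppp1r1b was lower among 2 forebrain genes (sums of 2262 to 2786 in WT/WT and 1485 to 1887 in 304Q/304Q mice) and Hba-a1 and Hbb-bs among 3 blood genes (1487 to 3246 and 1315 to 1456), and none passed among 6 genes of oligodendrocyte precursor cells, 8 of endothelial cells and pericytes, 6 of the choroid plexus, 5 of the meninges and 4 of the Y chromosome. The part of these cell types in the changes of the channel genes was not tested. Muscle genes were high in 1 library, replicate 5 of the 304Q/304Q mice of 12 months, with 3446 summed normalized counts where the other 4 of its group had 18.8 to 41.2; without it, 17 channel genes and 1648 of all genes passed at 12 months, against 16 and 1523 with it.

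**Figure D5:**
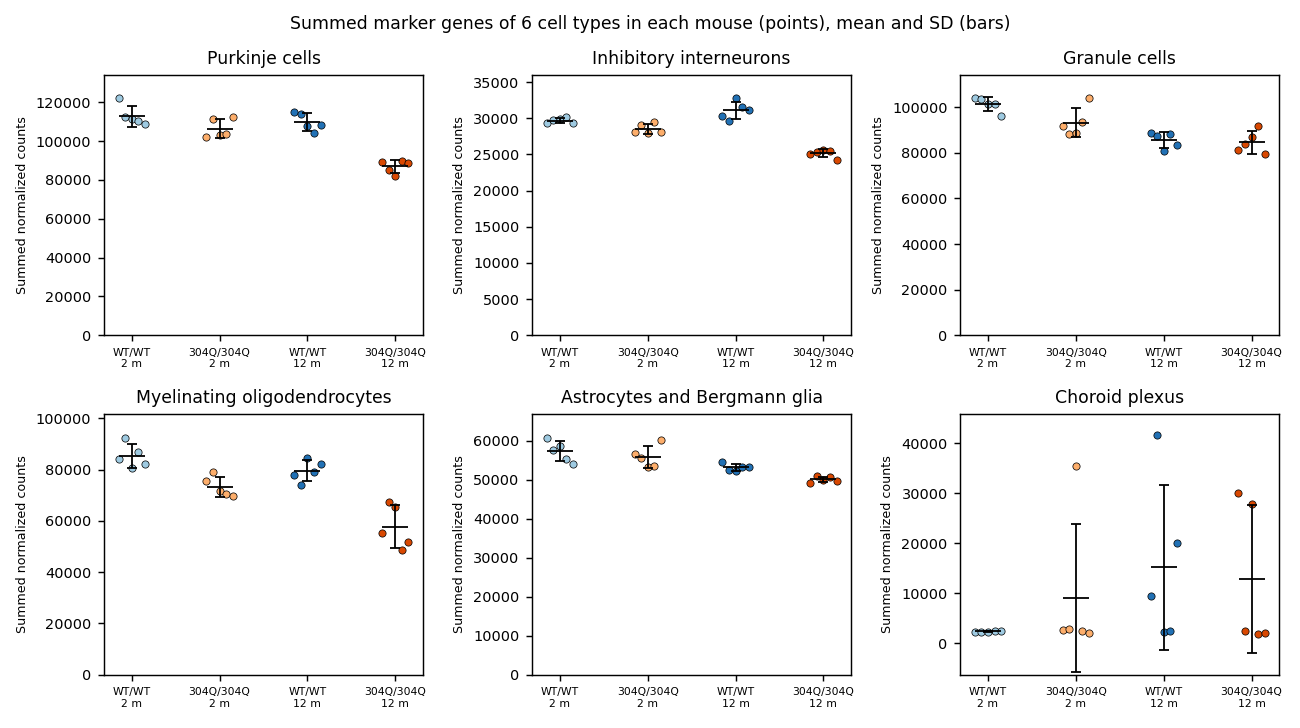
Summed normalized counts of the marker genes of 6 cell types in each of the 20 mice (points), with the mean and SD of each group of 5 (bars). The 12-month 304Q/304Q mice lie below the WT/WT mice for Purkinje cells, interneurons, oligodendrocytes and astrocytes, overlap them for granule cells, and the choroid plexus panel shows the 6 high libraries.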

How the data were processed

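PolyA-enriched cerebellar RNA of 20 mice was made into stranded paired-end libraries. The authors aligned the reads with STAR (version 2.4.5b in the submitters' processing notes; the study's methods give another version) to GRCm38, obtained gene counts with Rsubread, and the deposited table holds these whole-number counts, not normalized, for 29200 Ensembl genes; whether strand was used in counting is not stated. Library totals lay between 11385380 and 27636687 counts. Symbols and positions came from GENCODE M21, which holds 29150 of the IDs. The members and gene lists were chosen with earlier results of these data known. The 12153 genes that averaged 50 counts or more were scaled by TMM and fitted over all 20 libraries with 1 term per group by edgeR 4.0.16 (limma 3.58.1, R 4.3.3), with glmQLFit and glmQLFTest and Benjamini-Hochberg adjustment over all genes. A gene passed at an adjusted p of at most 0.05, and was a DEG where it also changed by 0.5 or more on the log2 scale. The common biological coefficient of variation was 0.113. Normalized counts were counts put on the mean TMM library size. FPKM used merged exons and 1000000 counts.

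Values of every mouse are given for the channel genes that passed in the genotype comparison at 12 months; other named genes passed in another test, had the highest level of their subfamily, or are summarised. Nothing in the labels says whether the mice shared litters or a batch. Alternatives were DESeq2 1.42.0, 3 surrogate variables from sva 3.50.0, other size factors and filters, only the groups compared, trends of GC content and length removed, the replicate number as a block, and each library left out. Replicates of a group all differed beyond sampling noise (chi-square over degrees of freedom at least 4.43). Promoter sequences came from the RefSeq table of GRCm38.p6, which holds 64 of the 89 genes; protein sequences were not used here. Some genes enter the counts but are not reported or plotted here.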

Additional observations from a re-analysis of the deposited data

Results flagged for a closer look

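Among 96 groups of 5 mice (the 4 groups of the genes looked at), 4 held a mouse whose gap to the nearest other exceeded Dixon's 95% critical value of 0.71, and chance alone flags about 1 in 20 groups. Kcnb2 was low in 304Q/304Q replicate 1 of 2 months, with 103.2 normalized counts. Kcnh3 was high in WT/WT replicate 4 of 2 months, with 88.2. Kcnip1 was high in WT/WT replicate 3 of 12 months, with 1396.6, and its interaction was lost without that mouse. Kcnj3 was high in WT/WT replicate 1 of 12 months, with 1826.8, the value through which its groups overlapped.

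The genotype effect differed between the ages for Kcng4 (interaction of −0.4878 on the log2 scale) and Kcnip1 (−0.5002), each lower at 12 months in edgeR's test.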

How the results depend on the processing

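Of 41 calls of a channel gene in a comparison, none changed sign in any alternative, 23 kept their side of the threshold in every alternative other than leaving out a library, and 33 did so with each library left out. The 16 genes that passed between the genotypes at 12 months numbered 14 to 17 over the other tools, filters and covariates and 16 to 18 with 1 library left out, and 8 (5 lower) without the 6 libraries high in choroid plexus genes, a setting chosen after seeing the data that also leaves fewer mice. The DEGs among them went from 6 to 4 with surrogate variables in edgeR, where Kcnip1 and Kcnj3 were under the threshold of size. No gene passed at 2 months in any alternative. The interaction count of 3 was 7 with DESeq2, 9 with DESeq2 and surrogate variables, 8 with edgeR and surrogate variables, and 2 to 8 with 1 library left out. The 10 genes that passed with age in WT/WT mice (7 lower) were 6 (3 lower) when only the groups compared were fitted and 6 (3 lower) without the choroid-high libraries; with 1 library left out they were 8 to 14, with 3 to 5 higher and 5 to 9 lower. The 12 genes in 304Q/304Q mice were 9 to 17 over the alternatives and 9 to 12 with 1 library left out. Among the age calls, Kcnb2 in WT/WT mice was lost without replicate 3 of either age, Kcnd3 without replicate 1 or 2 of 2 months or 3 or 5 of 12 months, and Kcnq3 without replicate 1 of 2 months; Kcnh2 in 304Q/304Q mice was lost without replicate 2 of 12 months. In 304Q/304Q mice, Kcnd2 was lost without replicate 3 or 5 of 2 months or 1, 2, 3 or 5 of 12 months, and Kcnt1 without 1 or 4 of 2 months or 3 or 4 of 12 months. The causes were not tested. With the replicate block, 16 genes passed at 12 months, 10 with age in WT/WT mice, 11 with age in 304Q/304Q mice and 3 in the interaction. Of 30 same-numbered pairs of mice, 6 correlated above 0.1 (r from −0.323 to 0.551). In 4 pairs the same-numbered mouse was the best match in the second group for the mouse of the first, so that the numbers do not pair the mice.

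How far depth and the spread between mice each limit the precision of single genes was not measured, and Kcnb2 and Kcnh3 had few counts. Of the 41 genes under 50 counts, none passed in any comparison with no filter, which at their depth does not show that they did not change. Litter, batch and cell composition cannot be told apart from what the groups share.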
